A study of Drosophila melanogaster with 10 samples.

Results

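Contact maps of the pericentromeric regions of Drosophila S2 cells were compared between HP1a RNAi and mock RNAi. The members are the 4 libraries that the labels give as HP1 alpha RNAi or as the GFP control, 2 HP1a RNAi replicates and 2 mock RNAi replicates, out of 9 libraries with a deposited score file and 10 labelled samples. S2 is an established embryonic cell line, and the cells of both groups had received double-stranded RNA, against HP1a or against GFP, 3 days before they were collected. The other libraries were 3 of untreated wild-type (WT) cells and 2 of Su(var)3-9 RNAi, and they are used here only as a reference. The HP1a transcript and protein are not part of a contact map, so the depletion could not be checked in these files. The labels do not say whether the replicates came from separate cultures, and the spread between replicates may therefore be technical.

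HP1a is the founding protein of heterochromatin. Its chromodomain binds histone H3 methylated at lysine 9, a mark that Su(var)3-9 sets, and its chromoshadow domain pairs HP1a molecules and recruits partners, so that it can join neighbouring nucleosomes and distant stretches of chromatin. In flies it coats the repeat-rich DNA around the centromeres, where a small number of genes nevertheless need this setting to be expressed. The comparison asked which contacts within these regions differed when HP1a was depleted.

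Contacts were read by chromosome conformation capture carbon copy (5C), in which crosslinked DNA is cut with EcoRI and ligated, and each junction is copied by a forward and a reverse primer that meet at the restored EcoRI site. The first-listed primers of chr3L and chrX show what a measured contact consists of. The capitals mark the part of the EcoRI site that each primer carries, and a forward end and a reverse start joined together give the whole site.
chr3L forward: ttactattggttctaaagtctgtcataGAA
chr3L reverse: TTCtcccacgggtgcagatggaggcaggcg
chrX forward: acgactgcgttcgaagcacagagcgctGAA
chrX reverse: TTCctaagtaaagagatagaatttctaggc
A read of one chrX primer joined to the other is 1 copy of that contact. From the study's list 558 primers were read for these 5 arms, 283 forward and 275 reverse. That is fewer than the paper states were designed, and the reason was not examined. Of the forward primers read, 100% ended with the capitals shown for them. Unlike these reads, the deposited values are smoothed scores of bin pairs, in which 1 primer pair can shape several neighbouring bins.

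Each deposited value was a log2 observed over expected score of a pair of bins on 1 chromosome arm, in genome build dm3. A bin spanned 5 kb on chrX and 10 kb on the other 4 arms, chr2L, chr2R, chr3L and chr3R. The 603 bins gave 40796 same-arm pairs of different bins, 35307 of them with a value in all 4 libraries. The covered regions, as the files give them, were chr2L:21906057-22967798, chr2R:19746-1385689, chr3L:22866370-24543557, chr3R:6153-428656 and chrX:21659812-22397716. A value of 0 was read as missing, which took 11.87% and 11.98% of all pairs from the mock RNAi libraries and 13.0% and 13.3% from the HP1a RNAi libraries. The depth behind a score is unknown, because the files hold no counts. The study's sequencing statistics list fewer reads with the EcoRI site for both HP1a RNAi libraries than for both mock RNAi libraries, so treatment and depth cannot be told apart. Across bin pairs, which are smoothed and not independent, Pearson's r was 0.66 between the HP1a RNAi libraries, 0.72 between the mock RNAi libraries and 0.45 on average between the groups.

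The whole level of the HP1a RNAi maps lay above that of the mock RNAi maps in all 3 distance classes. For bins less than 100 kb apart, the median score was -0.56 and -0.50 in the mock RNAi libraries and -0.30 and -0.15 in the HP1a RNAi libraries. For 100 to 400 kb it was -0.84 and -0.79 against -0.58 and -0.34, and for more than 400 kb it was -0.93 and -0.89 against -0.72 and -0.43. Both HP1a RNAi libraries were thus less negative than both mock RNAi libraries in each distance class, with differences of 0.31, 0.36 and 0.33. In the plot of scores by distance, the groups were apart in all 20 steps of 50 kb up to 1000 kb, with differences between 0.28 and 0.42. Farther out, where fewer pairs were covered, they overlapped in the 3 steps from 1350 to 1500 kb, with differences between 0.00 and 0.09. With 2 libraries against 2, the two-sided exact permutation test cannot go below p = 0.333, and every comparison of medians below has that p or a larger one. HP1a RNAi replicate 2 was the higher of the pair in every class, and without it the difference came to 0.23 for 100 to 400 kb and 0.19 above 400 kb.

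**Figure D1:**
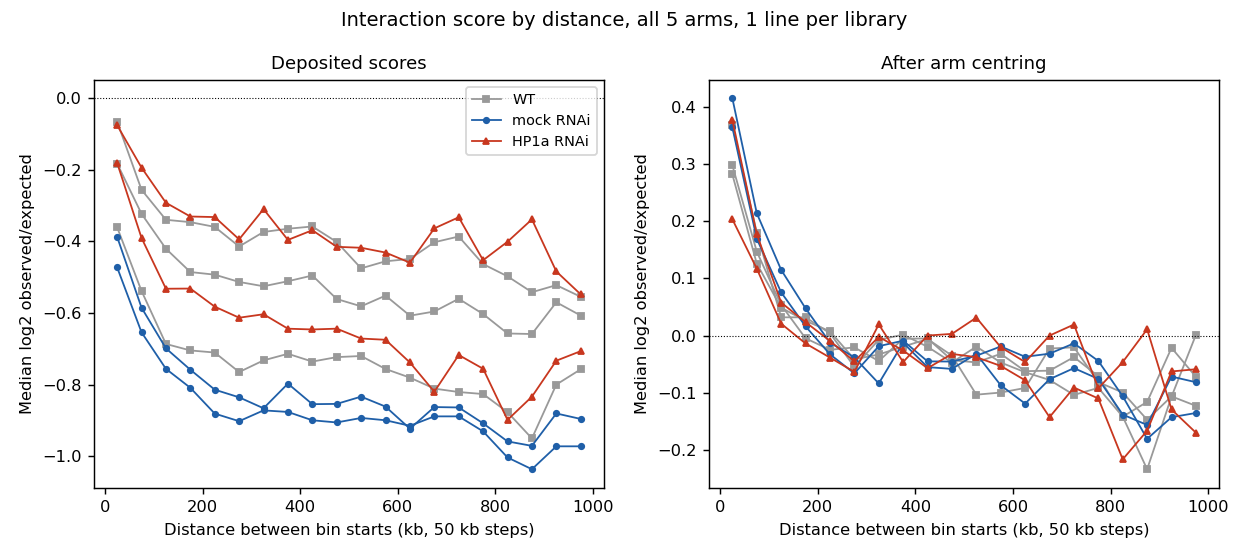
Median log2 observed over expected score (y axis) against the distance between bin starts in kb (x axis), 1 line per WT, mock RNAi and HP1a RNAi library over all 5 arms, as deposited (left) and after each library's arm median was subtracted (right). As deposited, both HP1a RNAi lines lie above both mock RNAi lines in all 20 steps, and after centring they do so in 2 steps, lie below in 3 and overlap in 15.

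Of the 14 combinations of arm and distance class with enough pairs, both HP1a RNAi libraries lay above both mock RNAi libraries in 13 and overlapped with them in 1, chr2L below 100 kb. The differences ran from 0.17, on chr3R below 100 kb, to 0.60, on chrX above 400 kb. On chrX above 400 kb, the medians were -0.85 and -0.90 in mock RNAi and -0.46 and -0.08 in HP1a RNAi, so that replicate 2 came close to 0. On chr2L below 100 kb, mock RNAi gave -0.63 and -0.22 and HP1a RNAi -0.29 and -0.07, and mock RNAi replicate 2 lay inside the HP1a RNAi range. Of the 5 arms, this one also had the mock RNAi replicates furthest apart, with arm medians of -0.90 and -0.60.

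The WT libraries did not share the low level of mock RNAi. Above 400 kb their medians were -0.58, -0.47 and -0.81, which puts all 3 above both mock RNAi libraries and around the HP1a RNAi values. Over the 14 combinations, both HP1a RNAi libraries lay above all WT libraries in 1 and overlapped with them in 13, whereas both mock RNAi libraries lay below all WT libraries in 10 and overlapped in 4. With mock RNAi and WT together as the control, the difference came to 0.17 below 100 kb, 0.18 at 100 to 400 kb and 0.16 above 400 kb. The offset between HP1a RNAi and mock RNAi is thus also an offset between mock RNAi and untreated cells.

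**Figure D2:**
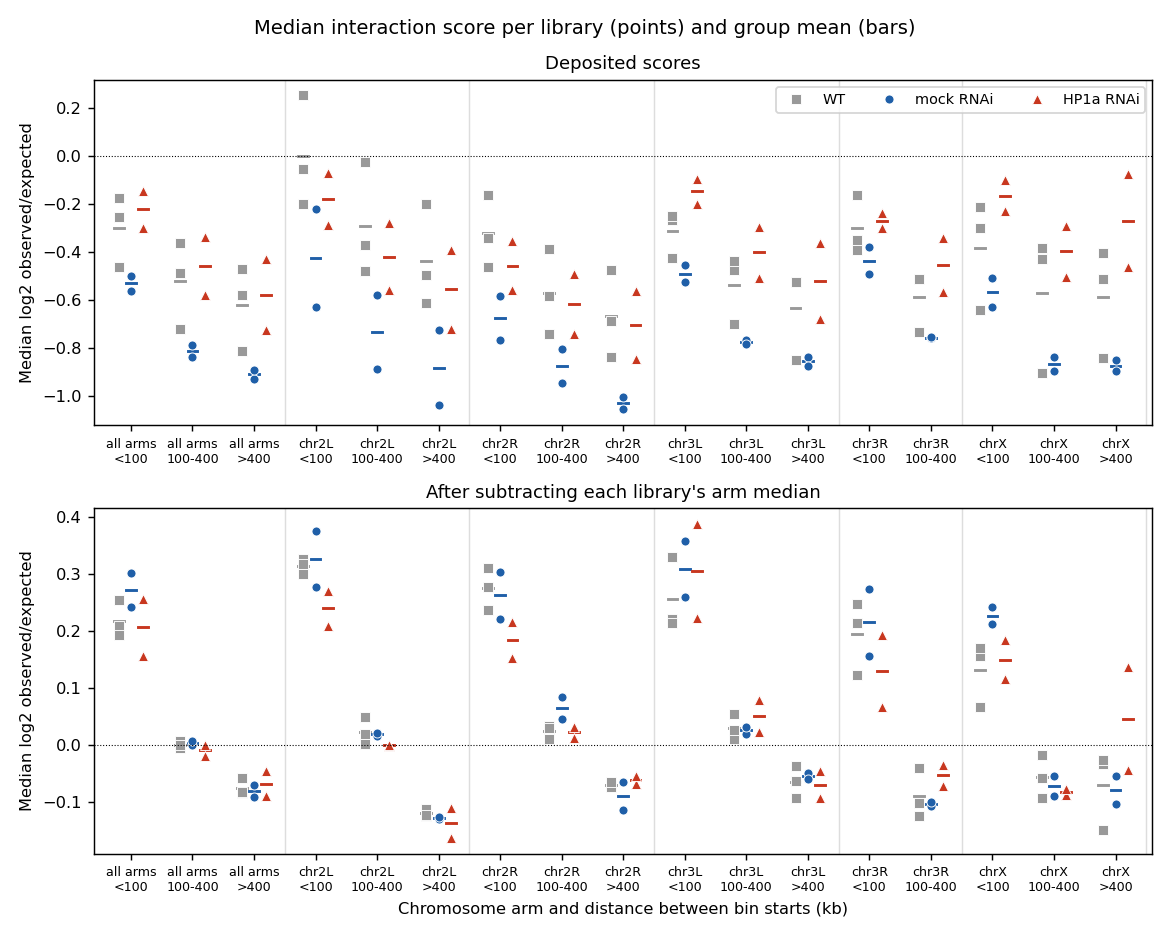
Median log2 observed over expected score (y axis) by chromosome arm and distance class in kb (x axis), with 1 point per library and a bar at the group mean, as deposited (top) and after arm centring (bottom). As deposited, the HP1a RNAi points lie above the mock RNAi points in 13 of 14 combinations of arm and distance, and after centring in 2.

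A score above 0 means more contact than expected for the distance, and these positive contacts were the more frequent ones in HP1a RNAi. Below 100 kb, 8.74% and 14.3% of the valued pairs were positive in mock RNAi and 29.7% and 37.1% in HP1a RNAi. At 100 to 400 kb it was 2.29% and 2.50% against 11.4% and 24.6%, and above 400 kb 1.21% and 0.610% against 7.55% and 22.6%. The HP1a RNAi libraries held the larger share in each class, and by arm in 12 of 14 combinations, with overlap on chr2L and chr3R below 100 kb. The size of the difference rested on HP1a RNAi replicate 2 at the longer distances, since without it the difference was 8.99 percentage points at 100 to 400 kb and 6.64 above 400 kb, and without replicate 1 it was 22.3 and 21.7.

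Most positive contacts of the mock RNAi maps were positive in the HP1a RNAi maps too, which held many more. Among pairs valued in all 4 libraries, 564 were positive in both mock RNAi libraries and 3129 in both HP1a RNAi libraries, and 356 were positive in all 4. That is 63.1% of the mock RNAi set and 11.4% of the HP1a RNAi set. Positive in both HP1a RNAi libraries and in neither mock RNAi library were 2323 pairs, 6.58% of the pairs valued in all 4. Of these, 740 were more than 400 kb apart, 5.09% of the pairs at that distance. The opposite was shown by 42 pairs, 2 of them more than 400 kb apart. On chr2R, of 120 pairs beyond 400 kb that were positive in both HP1a RNAi libraries, 117 were positive in neither mock RNAi library. Among all valued chr2R pairs at that distance, 0% and 0.258% were positive in the mock RNAi libraries, so almost any set of pairs there would be positive in neither. A share above 0 moves with the level of the whole map, which is why the comparison was repeated after the arm median of each library had been subtracted.

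With the level taken out, the groups overlapped in how the score changed with distance. The score is already divided by the contact expected at each distance, so the fall of contact itself was not compared. Below 100 kb the centred medians were 0.24 and 0.30 in mock RNAi and 0.26 and 0.16 in HP1a RNAi, and above 400 kb -0.07 and -0.09 against -0.09 and -0.05. This held for all 3 classes over all arms. By arm, both HP1a RNAi libraries were above both mock RNAi libraries in 2 of 14 combinations, below them in 5 and overlapped in 7, with differences from -0.09 to 0.13. The 5 combinations with lower values were chr2L, chr2R and chrX below 100 kb and chr2L and chr2R at 100 to 400 kb. The 2 with higher values were chr3R at 100 to 400 kb and chrX above 400 kb, and neither direction was stable. The difference on chr3R, 0.05, turned to -0.050 with centring on the library median and to -0.0038 with distance limits of 50 and 200 kb, and that on chrX, 0.13, turned to -0.49 when zeros were kept as values. Of the 5 lower ones, chrX below 100 kb turned from -0.08 to 0.049 with centring on the library median.

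On chrX the scores of near and far contacts lay closer to each other in HP1a RNAi than in mock RNAi, but not than in WT. The median below 100 kb exceeded that above 400 kb by 0.35 and 0.27 in the mock RNAi libraries, by 0.23 in HP1a RNAi replicate 1 and by -0.02 in replicate 2, where far contacts thus scored as high as near ones. WT gave 0.19, 0.22 and 0.20 on chrX, below both mock RNAi libraries and between the HP1a RNAi libraries. On chr2R the gap was 0.29 and 0.42 in mock RNAi and 0.29 and 0.21 in HP1a RNAi, with the HP1a RNAi libraries below by a narrow margin (0.285 against 0.287 for the nearest pair). There WT gave 0.35, 0.31 and 0.38, inside the mock RNAi range and above HP1a RNAi. On chr2L and chr3L the groups overlapped, and over all arms the gap was 0.37 and 0.39 against 0.43 and 0.28. Whether the gap differed between arms was not tested.

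The scores within a map were spread more widely in HP1a RNAi, on both sides of the median. The median absolute deviation was 0.25 in both mock RNAi libraries, 0.35 in both HP1a RNAi libraries, and between 0.22 and 0.27 in WT. The HP1a RNAi libraries were wider than the mock RNAi libraries on 4 of the 5 arms, from 0.34 and 0.37 against 0.21 and 0.22 on chr3L to 0.31 and 0.29 against 0.23 and 0.26 on chr2R, and they overlapped on chr3R, where they gave 0.29 and 0.17 against 0.20 and 0.20. Pairs more than 0.5 above the arm median made up 8.19% and 8.60% of the pairs at 100 to 400 kb in mock RNAi and 13.8% and 14.2% in HP1a RNAi. Beyond 400 kb they made up 5.37% and 5.15% against 10.5% and 14.4%, with 3.39% to 4.87% in WT. Both differences turned when zeros were kept as values, from 5.60 to -5.48 percentage points at 100 to 400 kb and from 7.19 to -5.07 beyond, because a 0 then counts as more than 0.5 above a mock RNAi median. Below 100 kb the groups overlapped, at 26.5% and 33.1% against 32.8% and 21.1%. Over all distances, 10.0% and 9.59% of pairs lay more than 0.5 below the arm median in mock RNAi, against 17.4% and 16.8% in HP1a RNAi.

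The wider spread and the lower read number went together, and the part of one in the other was not tested. Over all arms, the step between neighbouring bin pairs was 0.058 and 0.059 in mock RNAi and 0.082 in both HP1a RNAi libraries. Divided by the median absolute deviation it was 0.236 and 0.235 against 0.236 and 0.235. By arm this ratio was higher in HP1a RNAi on chr2L (0.29 and 0.25 against 0.31 and 0.30) and chr2R (0.27 and 0.24 against 0.29 and 0.28). It was lower on chr3L (0.25 and 0.25 against 0.22 and 0.22), and the groups overlapped on chr3R and chrX. Both Su(var)3-9 RNAi libraries, spread at 0.55 and 0.58, were wider still. HP1a RNAi also had more missing pairs, most clearly on chr3R, with 15.0% and 15.8% against 21.2% and 20.7%.

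**Figure D3:**
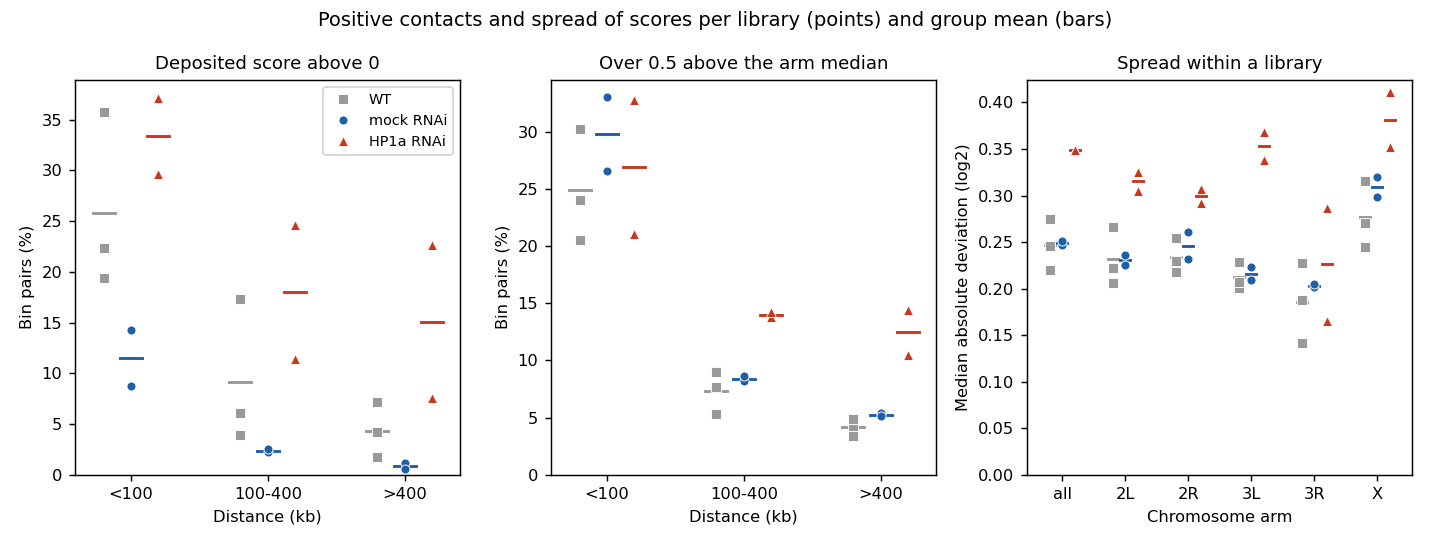
Percentage of bin pairs with a deposited score above 0 (left) and more than 0.5 above the library's arm median (middle) by distance class in kb, and median absolute deviation of the scores on the log2 scale by arm (right). Points are libraries, bars are group means, and the y axes start at 0. Both HP1a RNAi points lie above both mock RNAi points in all 3 classes on the left, beyond 100 kb in the middle, and on every arm but chr3R on the right.

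Single contacts were tested with limma over the 35307 pairs. On the deposited scores, 1581 pairs were higher in HP1a RNAi at an adjusted p under 0.05, which is 4.48% of those tested, and 139 were lower (0.394%). Because smoothing gives neighbouring pairs the same score, these were 832 and 44 distinct sets of scores. Without regard to the test, both HP1a RNAi libraries lay above both mock RNAi libraries in 52.0% of pairs and below in 7.17%. By arm, chrX held 731 of the higher pairs, 9.30% of its pairs, chr3L 417 (3.19%), chr2R 312 (3.64%) and chr2L 121 (2.36%). Of the lower pairs 104 were on chr2L (2.03% of its pairs), 28 on chrX (0.356%), 7 on chr3L (0.0536%) and 0 on chr2R. On chr3R there were 0 calls in either direction. At an unadjusted p under 0.05, limma gave 8600 higher and 670 lower pairs over all arms, with 121 lower on chr2R and 56 higher and 0 lower on chr3R, whose 699 tested pairs are the fewest.

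Few of these calls passed the threshold after arm centring. With it, 7 pairs were higher and 7 lower, 0.0198% of the pairs tested in each direction, and both HP1a RNAi libraries lay above both mock RNAi libraries in 25.1% of pairs and below in 27.7%. The 7 higher pairs were a single patch of chrX and the 7 lower pairs a single stretch of chr2L. The counts on the deposited scores depended on each library. They were 448 higher and 76 lower without mock RNAi replicate 1, 224 and 33 without mock RNAi replicate 2, 8312 and 399 without HP1a RNAi replicate 1, and 1603 and 437 without HP1a RNAi replicate 2, in fits that assume the remaining library of a group to vary like the other group. With WT in place of mock RNAi, 143 pairs were higher and 128 lower. With mock RNAi and WT together as the control, arm centred scores gave 1283 higher and 1660 lower pairs, among them 823 of the 1581 and 135 of the 139 called on the deposited scores against mock RNAi. The contacts named next were not called in the fit on all 9 libraries, where the chrX patch had an adjusted p of 0.195, the contact across lt 0.185 and the contact before it 0.221 by limma.

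The chrX patch joined bins within chrX:22034812-22059812, 5 to 20 kb apart. Its 7 pairs shared 1 set of scores, -0.73 and -0.89 in mock RNAi and 2.53 and 2.31 in HP1a RNAi. The contact thus went from below to well above the expected level, a difference of 3.23 ± 0.26 (SE, n = 2 against 2, limma adjusted p = 0.000999), and of 2.75 ± 0.22 after arm centring (adjusted p = 0.0277). The WT libraries stood far apart here, at 0.30, -0.63 and -2.25, with none as high as HP1a RNAi. The Su(var)3-9 RNAi libraries gave 0.00 and 2.27. After arm centring they gave 1.34 and 2.90, above mock RNAi at 0.02 and -0.05 and WT at 0.67, -0.27 and -1.43. A higher score of this patch was thus not particular to HP1a RNAi.

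The stretch of chr2L contained light (lt), a heterochromatic gene at chr2L:22817527-22835867 that encodes a vesicle-trafficking protein of the Vps41 family needed for eye pigment. Pairs of bins from chr2L:22796057-22826057 with the bin chr2L:22836057-22846057 on its far side scored 0.13 and -0.08 in mock RNAi against -2.996 and -2.61 in HP1a RNAi, a difference of -2.83 ± 0.27 (SE, n = 2 against 2, limma adjusted p = 0.00365) and of -3.16 ± 0.24 after arm centring (adjusted p = 0.0277). After arm and distance centring the difference was -2.98 to -2.90 and no longer passed, with adjusted p from 0.0660 to 0.0667. WT gave 0.01, -0.13 and -0.41, near mock RNAi, and Su(var)3-9 RNAi gave -1.80 and -3.65, below mock RNAi and WT. The contact of the same stretch with the bin before it, chr2L:22786057-22796057, was strong in mock RNAi, at 2.32 and 2.69, and in WT, at 2.21, 2.34 and 2.73, and stood at 0.63 and -0.16 in HP1a RNAi (adjusted p = 0.0148, and 0.0600 after centring). Of 197 tested pairs that touch the lt bins, limma called 37 lower and 0 higher in HP1a RNAi, and 73 lower and 6 higher at an unadjusted p under 0.05. The 37 pairs hold 27 distinct sets of scores and were 26.6% of all lower pairs. All 104 lower pairs on chr2L held 30 distinct sets. By bin, limma called 33 lower pairs at chr2L:22816057-22826057 and 5 at chr2L:22826057-22836057, which both overlap lt. The bins chr2L:22796057-22806057 and chr2L:22806057-22816057, outside the gene, had 33 each, so these calls belong to the stretch and not to lt alone.

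Blocks of 100 kb show where along the arms the centred maps differed. Of 365 block pairs with enough values, both HP1a RNAi libraries were above both mock RNAi libraries in 97 (26.6%), below in 82 (22.5%) and overlapped in 186, and the median difference was 0.00. The largest lower difference that did not overlap was within chr2R:819746-919746, where the centred median was 0.60 and 0.78 in mock RNAi and -0.18 and -0.07 in HP1a RNAi. With itself this block thus scored above the arm median in mock RNAi and below it in HP1a RNAi. WT lay between, at 0.32, 0.10 and 0.38. Its deposited medians were below 0 in both groups, at -0.39 and -0.11 in mock RNAi and -0.95 and -0.57 in HP1a RNAi. Pairs within a block are under 100 kb apart, where the centred chr2R median was 0.22 and 0.31 in mock RNAi and 0.22 and 0.15 in HP1a RNAi. The centred contacts of this block with the block before it, chr2R:719746-819746, gave 0.39 and 0.60 against 0.00 and -0.36. The block chr2L:22806057-22906057, which holds lt, gave with itself 0.14 and 0.05 against -0.52 and -0.91. WT gave 0.15, 0.02 and -0.39 for this chr2L block, above HP1a RNAi. It also lay above for the chr2R neighbours, at 0.46, 0.15 and 0.32.

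The largest higher differences were between blocks rather than within them. The block chr2R:119746-219746 scored -0.34 and -0.73 with chr2R:319746-419746 in mock RNAi and -0.16 and 0.55 in HP1a RNAi. With chr2R:1119746-1219746, at the far end of the covered region, it scored -0.29 and -0.14 against 0.21 and 0.71. On chr3L, the block 24166370 to 24266370 and the last block, from 24466370, gave -0.41 and -0.69 against 0.09 and 0.23. Replicate 2 was the higher HP1a RNAi library in each of these. WT gave -0.44, 0.13 and 0.12 for the first of them, overlapping with HP1a RNAi. It lay below HP1a RNAi for the second, at -0.21, -0.06 and -0.30, and for the chr3L pair, at -0.17, -0.53 and 0.06. With blocks of 200 kb the first 2 differences shrank from 0.73 to 0.11 and from 0.67 to 0.07, the chr2L block went from -0.81 to -0.25, and the contact of the chr2R neighbours from -0.67 to -0.35, so their size held only at the finer scale.

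**Figure D4:**
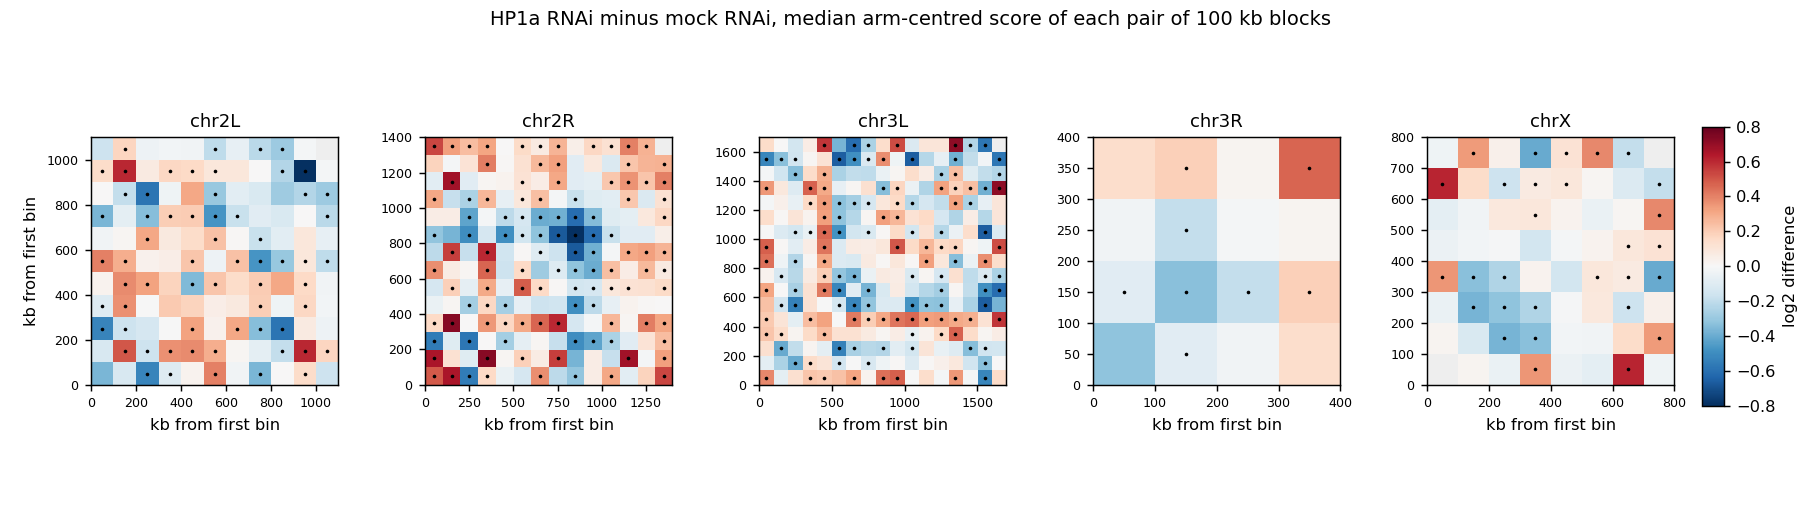
Difference between HP1a RNAi and mock RNAi in the median arm-centred score of each pair of 100 kb blocks, with both axes in kb from the first bin of the arm, red for higher and blue for lower in HP1a RNAi on the log2 scale. Dots mark block pairs in which both HP1a RNAi libraries lie on 1 side of both mock RNAi libraries, 97 higher and 82 lower of 365.

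The 24 genes followed as viewpoints came from the study's list of heterochromatic genes differentially expressed on knockdown of dMES-4, a histone methyltransferase. They are those with dm3 coordinates on these arms that overlap a bin, and not all heterochromatic genes of these arms. Each was followed with all same-arm pairs touching its bins. On deposited scores, both HP1a RNAi libraries lay above both mock RNAi libraries at 22 genes and below at 1, lt, and overlapped at Clamp. Of all 563 bins used as viewpoints, 74.6% lay above and 1.24% below. After arm centring 13 genes lay above, 5 below and 6 overlapped, with a median difference of 0.07, beside 34.1% of all bins above and 33.2% below and a median difference of -0.01.

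Of the 3 ribosomal protein genes, RpL5 was apart between the groups and the others were not. RpL5 (chr2L:22425011-22429616), a protein of the large ribosomal subunit, had centred medians of -0.08 and -0.07 in mock RNAi and 0.09 and 0.21 in HP1a RNAi. WT gave 0.21, 0.26 and 0.03 at RpL5, above mock RNAi and around HP1a RNAi. RpL38 gave 0.03 and -0.01 against -0.09 and 0.20, and RpL10 gave -0.07 and -0.09 against -0.08 and -0.26, so both overlapped. CG17490, which shares a bin with RpL5, gave -0.02 and 0.02 against 0.07 and 0.09. WT stood at 0.18, 0.23 and 0.05 there, also above mock RNAi and around HP1a RNAi.

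Of the 13 genes with higher values, cta and fog are known from gastrulation. cta (concertina, chr2L:22874548-22885683), a G protein alpha subunit that relays the signal for the cell shape changes of gastrulation, gave -0.15 and -0.13 in mock RNAi and 0.09 and 0.06 in HP1a RNAi. fog (folded gastrulation, chrX:22226153-22257030), the secreted ligand of that pathway, gave -0.05 and 0.00 against 0.16 and 0.07. WT lay below HP1a RNAi at cta (0.01, -0.02 and -0.23) and at fog (-0.08, -0.05 and 0.04). The 2 genes lie on different arms, and contacts between arms were not analysed here. CG42346 and CG34334, which share bins with fog or with each other, lay higher by 0.15 and 0.16. cta lies within 100 kb of lt, which had centred medians of -0.36 and -0.38 against -0.91 and -1.06, the lowest of the 24. At lt, WT gave -0.45, -0.32 and -0.40, near mock RNAi.

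Nipped-A and Nipped-B, genes for chromosome proteins, had higher values after arm centring. Nipped-B (chr2R:579177-616522), the cohesin loader, gave 0.14 and 0.08 in mock RNAi and 0.28 and 0.14 in HP1a RNAi, with replicate 2 only just above the mock RNAi range, and the groups overlapped when distance was centred too. Nipped-A (chr2R:1065470-1138527), the fly Tra1 subunit of histone acetyltransferase complexes, gave -0.09 and -0.14 against -0.01 and -0.04. WT overlapped with HP1a RNAi at Nipped-B (0.17, 0.18 and 0.10) and lay below it at Nipped-A (-0.11, -0.13 and -0.12). Clamp, a zinc finger protein that binds GA repeats and serves dosage compensation, gave -0.12 and 0.05 against -0.02 and -0.04 and overlapped. The piRNA pathway genes AGO3, a Piwi-family protein, and BoYb, a Tudor domain protein, also overlapped, with differences of -0.03 and -0.06.

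The largest higher value was at Mes2 (chr3L:22938757-22945348), with -0.01 and 0.00 in mock RNAi and 0.28 and 0.22 in HP1a RNAi. WT gave 0.08, 0.05 and -0.08 at Mes2, below HP1a RNAi. Next to lt on the lower side were Atf6 and Gprk1. Atf6, a transcription factor of the unfolded protein response, gave -0.16 and -0.12 against -0.22 and -0.30. Gprk1, a G protein-coupled receptor kinase that spans 15 bins, gave -0.03 and -0.02 against -0.11 and -0.16. WT overlapped with HP1a RNAi at Atf6 (-0.22, -0.22 and -0.04) and lay above it at Gprk1 (0.02, -0.04 and 0.06). l(1)G0196 and conu lay lower by 0.09 and 0.06, and beta-Man, CG31523, CG17018 and CG17698 higher by 0.08, 0.08, 0.07 and 0.18, while Usp2 overlapped. Centring by arm and distance gave 11 genes above and 5 below, with CG31523 and CG17698 also overlapping and Clamp above. The 24 differences are contacts of bins of 5 or 10 kb around a gene, not of its promoter, and gene expression is not part of these files.

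**Figure D5:**
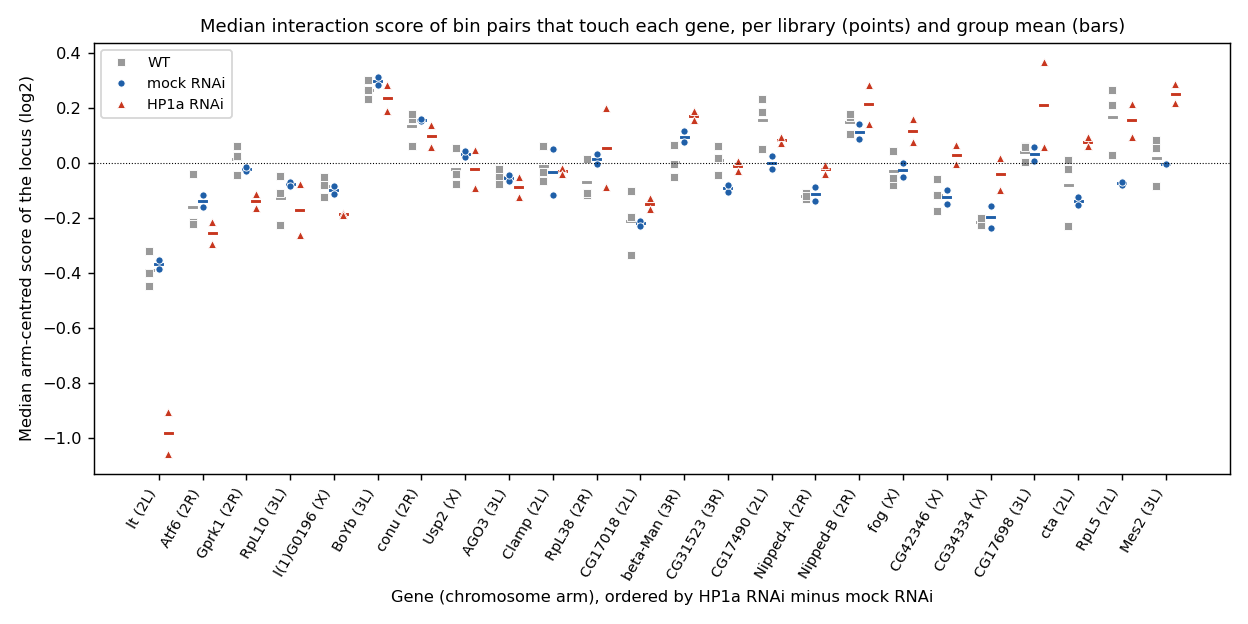
Median arm-centred score of all bin pairs that touch each of 24 heterochromatic genes from the study's dMES-4 knockdown list (y axis, log2). Each library has 1 point and each group a bar at its mean. Genes are ordered along the x axis by the difference between HP1a RNAi and mock RNAi. The HP1a RNAi points lie above the mock RNAi points at 13 genes and below at 5, with lt at -0.91 and -1.06 standing lowest.

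Matrix attachment regions (MARs) are stretches of DNA that stay with the nuclear matrix after extraction, and 145 of the 603 bins overlapped 1 of the 161 MARs listed with the study. After centring by arm and distance, pairs with a MAR in both bins had medians of 0.04 and 0.02 in mock RNAi and 0.08 and 0.04 in HP1a RNAi. Pairs with a MAR in neither bin gave 0.01 and 0.01 against 0.00 and -0.01. In mock RNAi the excess of pairs with MARs over pairs without was thus 0.02 and 0.01, against 0.07 and 0.05 in HP1a RNAi and 0.03 to 0.05 in WT. HP1a RNAi replicate 2 lay inside the WT range and replicate 1 above it. These differences are small beside the median absolute deviation of 0.25 to 0.35 in the same libraries.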

How the data were processed

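5C was measured in 4 libraries compared here, 2 of HP1a RNAi and 2 of mock RNAi, with 3 WT and 2 Su(var)3-9 RNAi libraries as reference. The values deposited by the authors are log2 ratios of observed to expected contact per pair of bins. According to the methods and the labels, they kept read pairs with the EcoRI site, aligned them to the primers with Bowtie2, binned them with median smoothing and normalized them against the expected contact in my5C, in dm3. Read counts were not used here, so no counting interval can be given. Genes came from the study's list of genes differentially expressed on dMES-4 knockdown, and MARs and primers from its other lists. The 24 gene names were matched to RefSeq by locus tag. The non-crosslinked control was not analysed here.

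Each same-arm pair of different bins was used once, mirrored values were averaged, and 0 was treated as missing. Distance was that of bin starts. Medians were taken per library, with at least 20 pairs, and compared by two-sided exact permutation tests (smallest p = 0.333). limma 3.58.1 in R 4.3.3 (lmFit, eBayes, Benjamini-Hochberg) was fitted over all pairs valued in 4 libraries and was tested on simulated data. The simulated pairs had independent errors, without smoothing or a shift of a whole map, so that test does not cover these features of the maps. Tables were made with pandas 2.3.3. Centring subtracted the arm median, or the mean at each distance on the arm. The genes named were all 24 that fit the rule given, with the 3 bin pairs of smallest adjusted p and the 3 largest block differences in each direction. The distinct score sets and the contact before lt were added after their values were seen. Members and lists were chosen with earlier results of these data known. Alternatives were the treatment of 0, the pairs used, the distance limits, the statistic, the normalization, the control group, a replicate block and leaving out each library.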

Additional observations from a re-analysis of the deposited data

How the results depend on the processing

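Of 937 alternative values, 790 moved by less than 1 SD between replicates (for counts, by less than 1.5 times) and 140 moved more. The other 7 changed sign in comparisons in which the groups had been apart. Sign changes of differences between overlapping groups were not counted separately and are among the 790 and the 140. For medians and shares, leaving out 1 of 2 libraries cannot shift a difference beyond this SD, and the replicate block leaves it unchanged. The labels of those alternatives were thus set in advance, and the 790 include them, so this total does not measure how stable the results are.

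Deposited medians changed beyond that spread with mock RNAi and WT as the control, to 0.17, 0.18 and 0.16 for the classes below 100, 100 to 400 and above 400 kb, and without 1 library they ranged from 0.23 to 0.39, 0.23 to 0.48 and 0.19 to 0.48. Centred medians moved to -0.18 below 100 kb with zeros kept, to -0.039 at 100 to 400 kb with limits of 50 and 200 kb, to 0.0018 and -0.020 for the farther classes with centring on the library median, and, in units of the median absolute deviation, to -0.49, -0.044 and 0.13, and without 1 library from -0.11 to -0.02, -0.02 to 0.00 and -0.01 to 0.03. Percent positive moved to 6.78, 3.89 and 3.00 points above 0.5 and to 13.3 below 100 kb with WT added, and ranged from 18.1 to 25.6, 8.99 to 22.3 and 6.64 to 21.7 without 1 library. 

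Pairs over 0.5 above the arm median depended on the missing values. With zeros kept, the differences were -11.6, -5.48 and -5.07 points, since a 0 lies over 0.5 above a mock RNAi median, and with WT added 6.25 at 100 to 400 kb. Over 0.5 below, they were 6.25 with zeros kept and 8.24 with WT added. 

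limma's higher and lower calls were 7 and 7 after arm centring, 7 and 0 after arm and distance centring (3705 lower at an unadjusted p under 0.05), where the contacts at lt were lost, 130 and 73 after quantile normalization, 0 and 0 in the fit on all 9 libraries (4910 and 297 unadjusted, with the wider Su(var)3-9 RNAi libraries in the residual spread), and 224 to 8312 and 33 to 437 without 1 library. Chosen after seeing the data, WT as the control gave 143 and 128, mock RNAi with WT 652 and 209, and the latter after centring 1283 and 1660. The replicate block gave 3436 and 285, and with centring 165 and 207. The replicate numbers share only a number, since the deviations of same-numbered libraries correlated at r = 0.0016. For medians the paired differences equal the unpaired ones, with a smallest p of 0.5.

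Among centred medians whose groups had been apart, signs turned on centring by library median for chrX below 100 kb (0.049) and chr3R at 100 to 400 kb (-0.050). The latter also turned on limits of 50 and 200 kb (-0.0038). With zeros kept, signs turned for chrX above 400 kb (-0.49) and pairs with a MAR in neither bin (0.016).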
